A study of Mus musculus with 2 samples.

Results

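Transcripts of the metalloproteinase families MMP (matrix metalloproteinases), ADAM (a disintegrin and metalloproteinase), ADAMTS (ADAMs with thrombospondin motifs) and the ADAMTS-like (ADAMTSL) proteins were examined in heart tissue of mice. Members were taken by gene symbol alone (Mmp, Adam, Adamts or Adamtsl followed by a number, and Adamdec1), which gave 81 of the 24346 genes in the files: 23 MMP, 34 ADAM, 19 ADAMTS and 5 ADAMTSL genes. RNA sequencing had been done on 2 libraries of heart tissue preserved for RNA and frozen, both labelled HFD-MI, which the series title and design read as a high-fat diet and myocardial infarction, and both with the age label day 14; the event from which days were counted is not stated by the labels. The tissue of 1 library came from treatment with probucol, a lipid-lowering antioxidant drug, and the tissue of the other was untreated. The sample labels state no strain, genotype, sex, drug dose, part of the heart or number of animals per library. The column headers of both libraries carry the marks HypoE and CM, which no label explains and which were not interpreted, so a genotype that both groups share may be missing from this account. A heart without infarction or on a normal diet was not analysed here. Of the 8 marker genes of heart muscle, all were measured, and Ttn, the titin gene, was the lowest at 47.1 FPKM with probucol and 37.9 without.

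MMPs are secreted or membrane-bound zinc enzymes, made as inactive proenzymes, that cut collagens, elastin and other matrix proteins, and TIMP proteins block them. ADAMs sit in the cell membrane and shed the outer part of growth factors, cytokines and receptors, while many ADAMs of the germ line serve fertilisation. ADAMTS enzymes are secreted and act on proteoglycans, procollagens and von Willebrand factor, and ADAMTSL proteins lack the protease part and bind microfibrils. After infarction, MMPs of inflammatory cells and fibroblasts take part in the removal of dead muscle and in the turnover of the scar.

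Levels are in FPKM, the unit chosen by the authors, which divides the fragments of a gene by its transcript length and by the mapped fragments, so they can be set side by side between genes. Low values come in steps, 1 for each fragment, and by these 1 FPKM at an effective transcript length of 1 kb stood for 6.7 fragments with probucol and 7.47 fragments without. Equal fragment numbers thus gave an FPKM ratio of 1.12, a log2 ratio of 0.16. This ratio comes from the scaling between the libraries. It marks equal raw fragment numbers and is not a point of equal expression. Differences are given as log2((FPKM probucol + 0.5)/(FPKM untreated + 0.5)), which understates the difference of low genes, and the fold is on the same scale unless an FPKM ratio is named. A gene was called measured at a mean of at least 0.5 FPKM. With 1 library per group no test between the treatments was possible, and every value describes these libraries only. In bulk tissue, fewer cells of a type and less RNA per cell cannot be told apart.

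Of the 81 members, 40 were measured and 41 lay under the limit, of which 24 were listed at 0 in both libraries. Among the measured members, 7 were at least 2-fold lower with probucol (Mmp3, Mmp12, Mmp13, Mmp19, Mmp27, Adam8 and Adamts4), where 5.14% of the 12882 measured genes of the files passed the same limit. Only Mmp28 was at least 2-fold higher, where 1.07% of all measured genes were. At the smaller limit of 1.5-fold, 10 members were lower and 1 was higher, against 12.0% and 5.52% of all measured genes. Of the 40, 29 lay below 0 on the log2 scale, as did 49.1% of all measured genes. The median log2 ratio of the measured members was -0.35, with -0.70 for MMP, -0.28 for ADAM, -0.30 for ADAMTS and -0.08 for ADAMTSL, against 0.01 for all measured genes. Of the 40, 4 members (Mmp8, Mmp13, Mmp27 and Adam12) passed the limit through the untreated library alone and so had to differ. Among the 36 members with at least 0.5 FPKM in both libraries, 5 were 2-fold lower and 1 was 2-fold higher, against 4.21% and 0.759% of the 12388 genes of that kind, and the median was -0.30. By 1.5-fold, 6 of the 36 were lower and 1 was higher, against 10.5% and 5.02%.

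**Figure D1:**
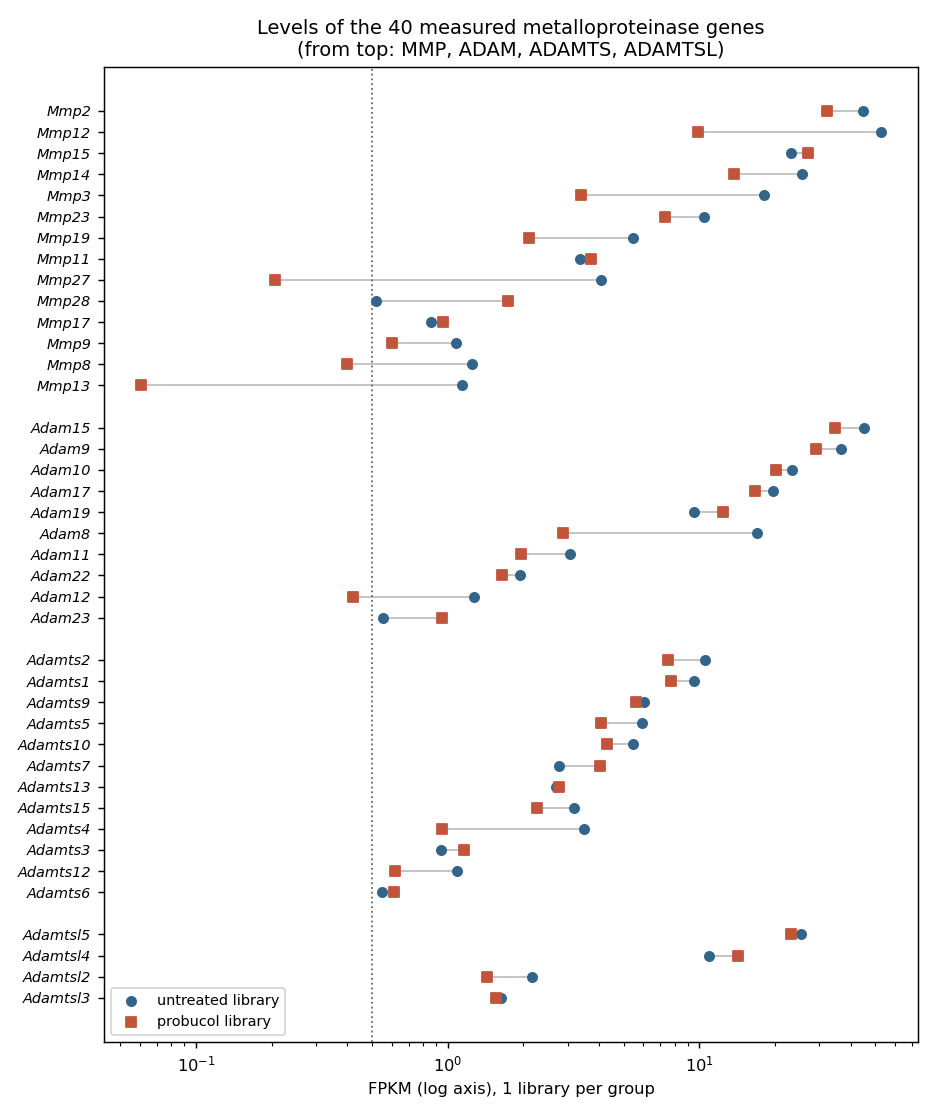
FPKM (log axis) of the 40 measured members in the untreated library (circles) and the probucol library (squares), grouped by family and ordered by mean level; the dotted line marks 0.5 FPKM. The longest gaps belong to Mmp13, Mmp27, Mmp12, Mmp3, Adam8 and Adamts4, while Adam9, Adam10, Adam15 and Adam17 lie close in both libraries.

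Summed over each family, MMP transcripts amounted to 103 FPKM with and 193 FPKM without probucol, a ratio of 0.536. ADAM transcripts had 122 against 159 FPKM, ADAMTS transcripts 42.6 against 53.9 and ADAMTSL transcripts 40.7 against 40.2. The order of the members differed between the libraries. In the untreated library Mmp12 ranked first of the 81 members and held 11.9% of their summed FPKM, followed by Adam15, Mmp2 and Adam9. In the probucol library Mmp12 ranked 11th with 3.2%, and Adam15, Mmp2, Adam9 and Mmp15 held the first places. Adam8 stood at rank 11 without and rank 21 with probucol, and Mmp3 at rank 10 and rank 20.

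Of the 7 members at least 2-fold lower, 4 lie together on chromosome 9, and the others (Adam8, Adamts4 and Mmp19) lie on chromosomes 7, 1 and 10. All 10 MMP genes of chromosome 9 stand side by side within 427 kb (7272514 to 7699585, GRCm38/mm10), with no other protein-coding gene of the RefSeq annotation between them. In gene order they are Mmp13, Mmp12, Mmp1b, Mmp3, Mmp1a, Mmp10, Mmp8, Mmp27, Mmp20 and Mmp7. Of these, 5 were measured, and all 5 were at least 1.5-fold lower with probucol (12.0% of all measured genes were), 4 of them at least 2-fold (5.14%). Mmp8, Mmp13 and Mmp27 passed the limit through the untreated library alone, so they had to be lower in the probucol library. This leaves Mmp12 and Mmp3 with at least 0.5 FPKM in both libraries, both 2-fold lower. Mmp1a, Mmp1b, Mmp10 and Mmp20 were listed at 0 in both libraries, and Mmp7 at 0 and 0.2 FPKM. The summed FPKM of the 10 genes was 13.9 with probucol and 77.6 without, while that of the 13 MMP genes elsewhere was 89.6 and 115. The nearest measured protein-coding genes outside the cluster had other values: Dcun1d5 before Mmp13 had 58.7 against 52.6 FPKM, and Tmem123 after Mmp7 had 39.3 against 43.8. Whether position itself bears on the difference was not tested.

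**Figure D2:**
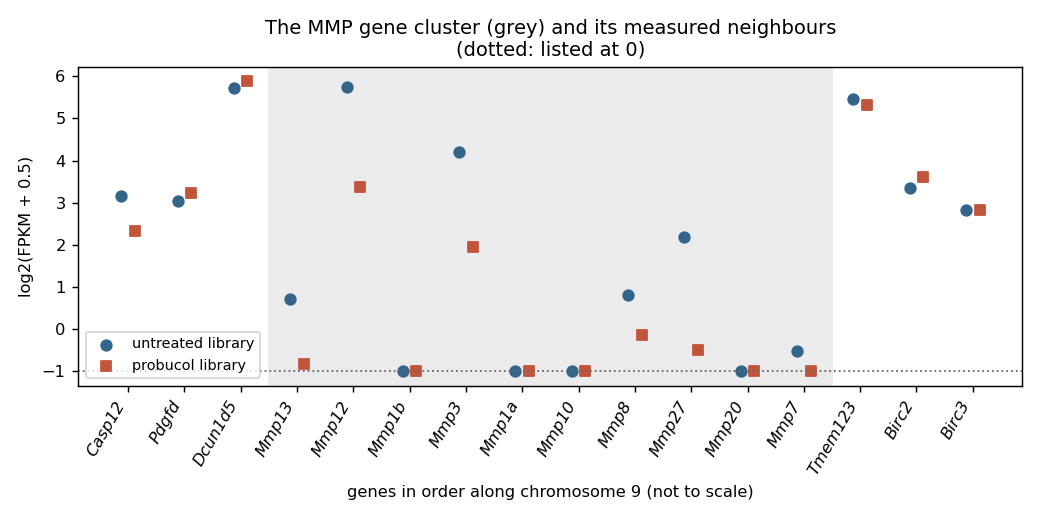
log2(FPKM + 0.5) of the 10 MMP genes of chromosome 9 (grey field) and of the 3 nearest measured protein-coding genes on each side, in gene order and not to scale, in the untreated (circles) and probucol (squares) libraries; the dotted line is the value of a gene listed at 0. All 5 measured MMP genes are lower in the probucol library, and of the neighbours Casp12 has the lowest log2 ratio (-0.82).

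The sequences before the start sites of the 5 measured cluster genes are shown because these genes were all lower. They are the last 120 bases before each RefSeq start (GRCm38.p6, plus strand, 5′ to 3′), and capitals mark matches to 3 motifs known from MMP promoters. These are the AP-1 motif TGANTCA (the site of Fos and Jun proteins), the PEA3 motif AGGAAG (an ETS factor site, in either strand) and the TATA box TATAAA (in either strand). No pair of these matches overlaps. Mmp12 has 2 starts in the table, both given.
Mmp13, chr9:7272394-7272513: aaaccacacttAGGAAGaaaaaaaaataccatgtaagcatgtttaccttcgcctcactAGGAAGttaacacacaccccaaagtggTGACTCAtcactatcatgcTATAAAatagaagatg
Mmp3, chr9:7445702-7445821: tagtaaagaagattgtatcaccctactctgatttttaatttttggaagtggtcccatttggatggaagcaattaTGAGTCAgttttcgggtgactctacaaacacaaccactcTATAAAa
Mmp12, first start, chr9:7344277-7344396: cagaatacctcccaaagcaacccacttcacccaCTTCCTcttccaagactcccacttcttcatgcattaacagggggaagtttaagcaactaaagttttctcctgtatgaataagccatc
Mmp12, second start, chr9:7347254-7347373: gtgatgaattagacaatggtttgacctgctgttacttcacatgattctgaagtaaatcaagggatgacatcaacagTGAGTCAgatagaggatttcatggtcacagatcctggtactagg
Mmp8, chr9:7558309-7558428: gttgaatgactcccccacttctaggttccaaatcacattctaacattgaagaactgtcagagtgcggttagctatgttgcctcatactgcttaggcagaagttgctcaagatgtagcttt
Mmp27, chr9:7571276-7571395: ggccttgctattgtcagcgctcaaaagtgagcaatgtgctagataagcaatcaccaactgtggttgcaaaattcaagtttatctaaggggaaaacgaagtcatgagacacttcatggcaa

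In the 250 bases before a start, the AP-1 letters were found for 8 of the 10 cluster genes, all but Mmp8 and Mmp27. They were found in 6.75% of all 32851 windows of the table, and for 7.82% of its 27025 genes. The match began 35 bases before the start of Mmp13, 46 before that of Mmp3 and 44 before the second start of Mmp12. The TATA letters were found for 7 of the 10 cluster genes and for 14.3% of all genes, and the PEA3 letters for 6 of 10 and for 32.3% of all genes. Among the 39 other members with a window, 4 had the AP-1 letters (Adam19, Adam20, Adam25 and Adam29), of which Adam20, Adam25 and Adam29 were listed at 0 in both libraries. Mmp27, the member with the lowest log2 ratio, had none of the 3 motifs in its window, and Mmp1a, Mmp10 and Mmp20 had the AP-1 and TATA letters and were listed at 0. A match is a description of letters, and binding was not measured.

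Among stromelysins, matrilysin and macrophage elastase, Mmp12 and Mmp3 were far lower with probucol and Mmp11 was not. Mmp12, the macrophage elastase (chromosome 9, 7344397 to 7360461), was listed at 9.89 FPKM in the treated heart against 52.9 FPKM in the untreated one. Its log2 ratio was -2.36. By its shortest transcript these values rest on 82 and 491 fragments, and by its longest on 225 and 1344. Mmp3, stromelysin 1 (chromosome 9, 7445822 to 7455975), a broad matrix protease that also activates other proMMPs, had 3.38 against 18.0 FPKM, from 36 and 214 fragments. Its FPKM ratio was 0.188, with a 95% binomial interval (Clopper-Pearson) of 0.128 to 0.268. These intervals hold the error of counting alone and treat each fragment as a separate molecule. Copies made by amplification are not separate molecules, so where they are among the fragments the intervals are too narrow. Mmp11, stromelysin 3, had 3.71 against 3.35 FPKM.

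The collagenases, which cut the triple helix of fibrillar collagen, were scarce. Mmp13, collagenase 3 (chromosome 9, 7272514 to 7283333), had 0.0605 FPKM with probucol and 1.14 without. These stand for 1 and 21 fragments, an FPKM ratio of 0.0531 with an interval of 0.00128 to 0.33. Mmp8, the collagenase of neutrophil granules, had 0.399 against 1.25 FPKM, from 6 and 21 fragments, with an interval of the ratio of 0.105 to 0.816. Its log2 ratio of -0.96 lay just short of 2-fold. Of 7 neutrophil markers in the files, all measured, 4 were lower and 2 higher with probucol by 1.5-fold or more (median -0.79). Of all measured genes, 12.0% were lower and 5.52% higher by that much. Camp and Ngp passed the limit through the untreated library alone; among the 5 markers with at least 0.5 FPKM in both libraries, 2 were lower and 2 higher, with a median of 0.49. Camp, a granule protein, was listed at 0 against 2.06 FPKM and Ngp at 0.157 against 1.41, while S100a8 (73.9 against 52.4) and S100a9 (64.9 against 42.4) went the other way. The summed FPKM of the 7 markers was 145 with and 105 without probucol, and their part in the values of Mmp8 was not tested.

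The gelatinases, which cut denatured collagen and basement membrane, were both lower by less than 1.5-fold. Mmp2, the gelatinase of fibroblasts and other stromal cells (chromosome 8, 92827290 to 92853421), had 32.2 FPKM with probucol and 44.6 without, from 619 and 956 fragments. Its FPKM ratio of 0.722 had an interval of 0.652 to 0.8. Mmp9, the gelatinase of neutrophils and macrophages, was low, at 0.604 against 1.08 FPKM from 12 and 24 fragments. The interval of its ratio, 0.254 to 1.16, included no difference, so none was detectable at this depth.

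Among membrane-type MMPs, the members differed in direction by FPKM. Mmp14, the transmembrane enzyme that activates proMmp2 (chromosome 14, 54431598 to 54442456), had 13.7 against 25.7 FPKM, from 219 and 459 fragments, with a ratio of 0.532 and an interval of 0.451 to 0.627. Mmp15, a related transmembrane enzyme, had 27.0 against 23.1 FPKM, from 892 and 851 fragments. Its ratio of 1.17 had an interval of 1.06 to 1.29, which included the ratio of equal fragment numbers, 1.12. Mmp14 thus lay above Mmp15 in the untreated library and below it in the probucol library. Mmp17, which is anchored by a lipid, had 0.956 against 0.857 FPKM, within 0.3% the ratio that equal fragment numbers give (40 in each library). Mmp16, Mmp24 and Mmp25 lay under 0.15 FPKM in both libraries.

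The remaining MMPs held both the lowest and the highest ratio of all members. Mmp27, a little-studied member of the chromosome 9 cluster (7571396 to 7581885), had 0.206 FPKM with probucol and 4.07 without, from 2 and 44 fragments. Its log2 ratio was -2.69, and its FPKM ratio of 0.0507 had an interval of 0.00595 to 0.194. Mmp19 (chromosome 10, 128790910 to 128800827), which cuts basement membrane proteins, had 2.1 against 5.44 FPKM, a log2 ratio of -1.19. By its shortest transcript it rests on 28 and 82 fragments, with an interval of 0.239 to 0.591. Mmp28, epilysin (chromosome 11, 83440768 to 83463040), was listed at 1.74 against 0.52 FPKM. Its log2 ratio was 1.13. By its shortest transcript these are 24 and 8 fragments, an interval of 1.45 to 8.62, and with a pseudocount of 1 the difference no longer reached 2-fold (log2 ratio 0.85). Mmp23 had 7.31 against 10.4 FPKM, and Mmp21 was listed at 0 in both.

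**Figure D3:**
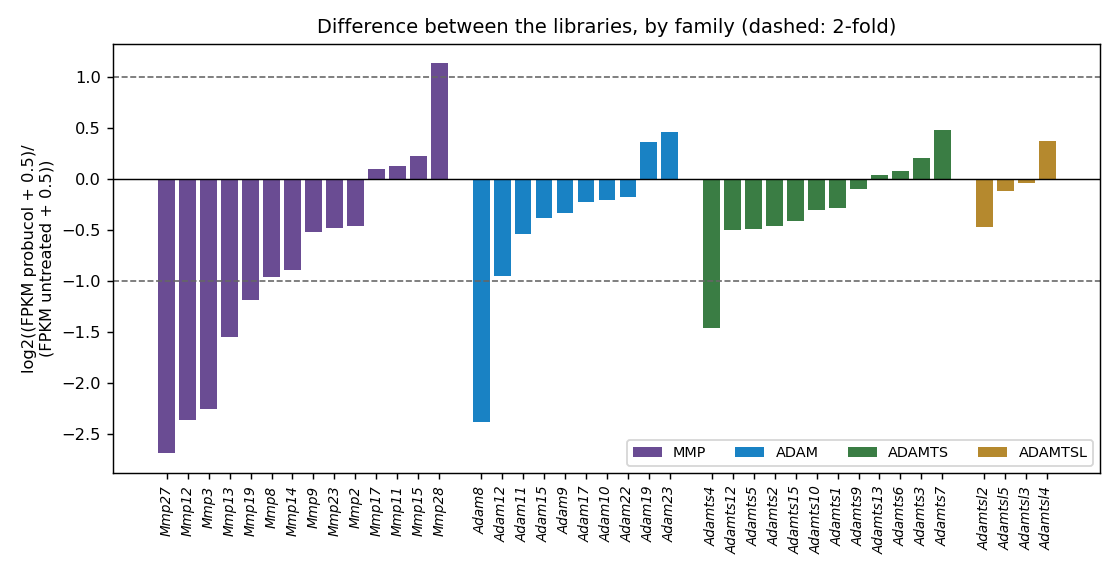
log2((FPKM probucol + 0.5)/(FPKM untreated + 0.5)) of the 40 measured members as bars, by family, with dashed lines at 2-fold. Mmp27, Mmp12, Mmp3, Mmp13, Mmp19, Adam8 and Adamts4 pass the lower line and Mmp28 passes the upper line.

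Among ADAMs, 1 member stood out from an otherwise narrow range. Adam8, a protease of myeloid cells that sheds adhesion molecules (chromosome 7, 139978932 to 139995207), was listed at 2.88 against 17.0 FPKM. Its log2 ratio was -2.38. From 56 and 368 fragments by its shortest transcript, its FPKM ratio was 0.17 with an interval of 0.126 to 0.225. Adam12, an ADAM of muscle and connective tissue that is induced in activated stromal cells, had 0.42 against 1.27 FPKM, from 21 and 71 fragments, with an interval of 0.193 to 0.543. The other 8 measured ADAMs lay between -0.54 (Adam11) and 0.46 (Adam23) on the log2 scale, so none of them reached 1.5-fold.

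The general sheddases were among the most abundant members and differed little. Adam10, which cleaves Notch receptors and cadherins (chromosome 9, 70678944 to 70780229), had 20.2 against 23.4 FPKM, from 594 and 768 fragments, with a ratio between 0.774 and 0.962. Adam17, which releases tumour necrosis factor and ligands of the epidermal growth factor receptor (chromosome 12, 21323509 to 21373632), had 16.7 against 19.7 FPKM. Adam9 had 29.2 against 36.7 FPKM, and Adam15, which is strong in vessels, had 34.6 against 45.1, the highest level of any ADAM in both libraries. Adam19, a sheddase needed for heart valve formation, went the other way, with 12.4 against 9.52 FPKM from 511 and 439 fragments and a ratio between 1.14 and 1.48. Of the ADAMs of brain and nerve that lack a working catalytic site, Adam11 had 1.96 against 3.07 FPKM, Adam22 had 1.65 against 1.94 and Adam23 had 0.951 against 0.552. Adam28, an ADAM of lymphocytes, and Adamdec1, a product of gut macrophages and dendritic cells, were listed at 0 in both libraries, and Adam33 had 0.156 against 0.186 FPKM.

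Of the 21 other ADAMs, most of them genes of testis and sperm, 15 were listed at 0 in both libraries and none was measured. All 5 marker genes of testis were listed at 0 too. Adam5 had the highest value of this group, 0.476 FPKM in the untreated library against 0.0631 in the probucol library, which by its shortest transcript stand for 7 and 1 fragments.

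Among ADAMTS enzymes, 5 of the 7 hyalectanases, which cut versican and aggrecan, were measured, and these 5 lay below 0. Adamts4, aggrecanase 1 (chromosome 1, 171250129 to 171262267), had 0.948 FPKM with probucol and 3.48 without, from 27 and 109 fragments. Its log2 ratio was -1.46, and its FPKM ratio of 0.276 had an interval of 0.174 to 0.424. Adamts5, aggrecanase 2 (chromosome 16, 85858157 to 85901125), had 4.07 against 5.9 FPKM, from 288 and 467 fragments, with an interval of 0.592 to 0.799. Adamts1 had 7.73 against 9.53 FPKM, Adamts15 had 2.27 against 3.18 and Adamts9 had 5.61 against 6.04. Under the limit, Adamts8 had 0.218 against 0.704 FPKM, from 5 and 18 fragments, with an interval of 0.0899 to 0.866, and Adamts20 had 0.0851 against 0.068.

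The other ADAMTS enzymes showed no measured member at 1.5-fold. Of the procollagen N-propeptidases, which trim collagen precursors, Adamts2 (chromosome 11, 50602085 to 50807573) had 7.54 against 10.5 FPKM, from 356 and 556 fragments, with an interval of 0.624 to 0.817, and Adamts3 had 1.16 against 0.945. Of those that act on cartilage oligomeric matrix protein or bind fibrillin, Adamts7 had 4.04 against 2.76 FPKM, Adamts12 had 0.62 against 1.09, Adamts10 had 4.3 against 5.46 and Adamts6 had 0.615 against 0.551. Adamts7 and Adamts12, a closely related pair, thus lay on opposite sides, at 0.48 and -0.50 on the log2 scale. Adamts13, which cuts von Willebrand factor, had 2.77 against 2.69 FPKM, while its substrate gene Vwf had 6.51 against 10.8. Of the 4 enzymes with other or less known substrates 0 were measured, and Adamts14 (0.3 against 0.457 FPKM) lay under the limit as well.

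The ADAMTS-like genes were the least different family. Adamtsl5 had 23.2 FPKM with probucol and 25.3 without, and Adamtsl3 had 1.56 against 1.63. Adamtsl4, a fibrillin-binding protein, had 14.2 against 10.9 FPKM, from 363 and 311 fragments, with a ratio between 1.12 and 1.52. Adamtsl2, which also binds fibrillin microfibrils, had 1.43 against 2.16 FPKM, from 33 and 55 fragments, with an interval of 0.421 to 1.05 that included no difference.

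Counting intervals could be given for the 28 measured members with a single transcript length. For 17 the interval of the FPKM ratio lay below 1, for 4 above 1 (Mmp15, Adam19, Adam23 and Adamtsl4) and for 7 it included 1. Set against the ratio of equal fragment numbers instead of 1, 19 intervals lay below it and 1, that of Adam19, above it. This second reading compares raw fragment numbers without the scaling between the libraries, so it does not mark a difference in level. These counts concern the sampling of fragments in 2 libraries, not the spread between animals. Intervals were computed for the members alone, so no share over all genes can be set beside these counts.

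**Figure D4:**
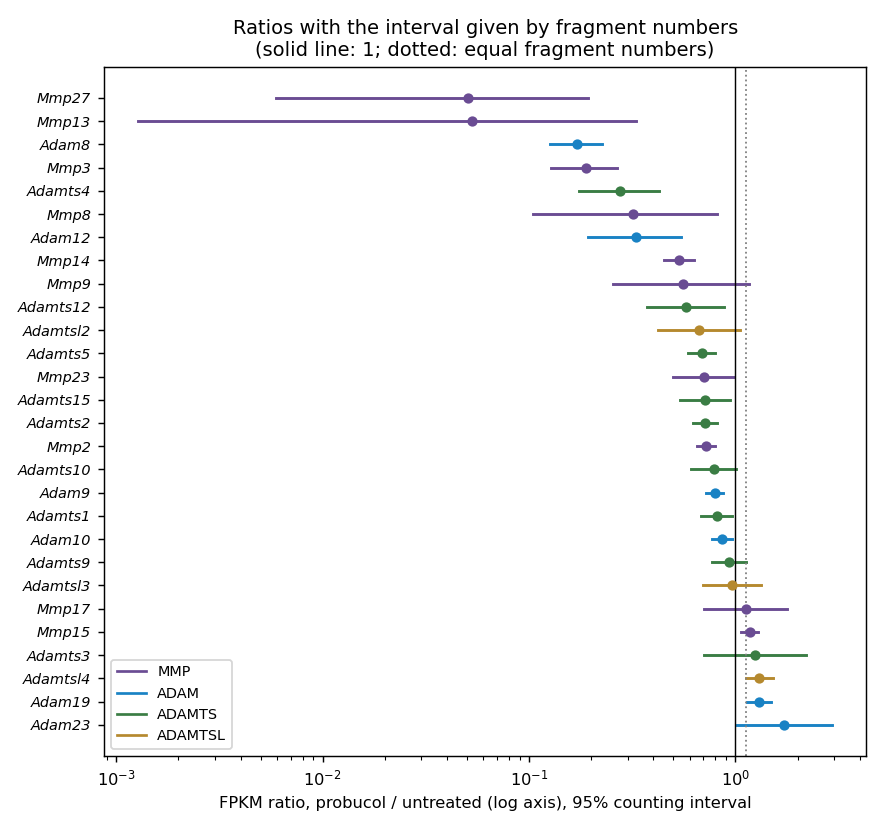
FPKM ratio of the probucol to the untreated library (log axis) for the 28 measured members with a single transcript length, with exact 95% counting intervals as lines; the solid vertical line is 1 and the dotted line is the ratio of equal fragment numbers (1.12). Mmp27 and Mmp13 have the lowest ratios and the widest intervals, and abundant members such as Mmp2, Adam9 and Adam10 have narrow intervals below 1.

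Other genes of the pathway were lower or higher by role. Of 6 measured inhibitors, 2 were lower and 1 was higher by 2-fold or more (median -0.41), against 5.14% and 1.07% of all measured genes. Timp1, an inhibitor of most MMPs, had 23.8 against 169 FPKM, Timp2 had 54.8 against 90.0, Timp3 had 66.2 against 53.0 and Timp4 had 58.0 against 16.3. Tfpi2 had 1.15 against 3.19 FPKM, and Reck, a membrane-bound inhibitor, had 1.94 against 2.16. Of 9 measured genes that govern the activation of proenzymes, 4 were at least 1.5-fold lower and 0 higher. Of all measured genes, 12.0% and 5.52% were. Plau, urokinase, had 3.99 against 9.97 FPKM, Plat, tissue plasminogen activator, had 12.5 against 21.1 and the urokinase receptor Plaur had 3.9 against 7.55. The proprotein convertase Furin, which activates membrane-type MMPs and ADAMs, had 29.9 against 28.8 FPKM.

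The partners and targets of ADAMs differed moderately. Of 8 measured partners of Adam10 and Adam17, 0 reached 1.5-fold and 7 lay below 0 (median -0.42), among them the iRhom gene Rhbdf2 (3.87 against 5.34 FPKM) and the tetraspanin Tspan17 (8.64 against 12.2). Of 23 measured membrane proteins shed by ADAMs, 7 were at least 1.5-fold lower and 0 higher (median -0.26). The shares of all measured genes were 12.0% and 5.52%. Mertk, a receptor for dead cells on macrophages, had 3.17 against 7.72 FPKM, and the chemokine Cxcl16 had 16.2 against 36.9. Notch1 (5.07 against 4.59) and Cdh5, the cadherin of endothelium (64.8 against 63.4), lay on the other side of 0. Of 8 measured matrix substrates of ADAMTS enzymes, 7 were at least 1.5-fold lower (median -0.78), against 12.0% of all measured genes. They included Col3a1 (104 against 277 FPKM), Fn1 (12.7 against 34.4) and versican, Vcan (5.57 against 8.62).

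Markers of several cell types moved in the same direction as the members. The 10 macrophage markers were each lower with probucol, by 1.65-fold (Csf1r) to 5.11-fold (Cd68), and their summed FPKM was 1100 with and 3630 without probucol, with 0 markers listed at 0. Of 6 markers of lipid-associated macrophages, 5 were at least 2-fold lower (median -2.18, summed FPKM 274 against 884), by up to 13.7-fold for Spp1 and 5.79-fold for Trem2. The summed FPKM of the 5 monocyte markers was 20.3 with and 59.8 without probucol, and each of the 5 was lower by 2-fold or more (median -1.31). Most of these sums was Fn1 (12.7 and 34.4 FPKM), a matrix gene that is not particular to monocytes. On the same scale Mmp12 was 5.14-fold and Adam8 5.2-fold lower. Both folds were close to that of Cd68, 5.11-fold. On this scale they were past the other macrophage markers and each monocyte marker, whose largest fold was that of Plac8, 3.54-fold lower. Of the markers of lipid-associated macrophages, Spp1 and Trem2 had a larger fold, and Gpnmb, at 5.04-fold, had a close one. By its shortest transcript, Mmp12 had an interval of the FPKM ratio of 0.146 to 0.236, so the order of such close folds cannot be told. Of 8 fibroblast markers, 5 were at least 1.5-fold lower (summed FPKM 1280 against 1620), and of 6 markers of activated fibroblasts 4 were (144 against 264). On this scale Mmp3, at 4.77-fold lower, was past each of these 14 markers. The largest fold among them was that of Tnc, 3.37-fold lower. Tnc was low (0.715 against 3.59 FPKM), so the scale understates its difference, and the order of Mmp3 and Tnc cannot be told. Mmp2 was 1.38-fold lower. The 8 fibroblast markers ran from Col1a1, 1.88-fold lower, to Gsn, which was 1.31-fold higher (449 against 342 FPKM). The fibroblast receptor Pdgfra, at 7.37 against 10.4 FPKM, was 1.38-fold lower. Endothelial markers had a median of 0.03 with 1 of 7 past 1.5-fold, and all 8 heart muscle markers lay above 0 (median 0.37). The part of cell composition in the members' values was not tested.

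**Figure D5:**
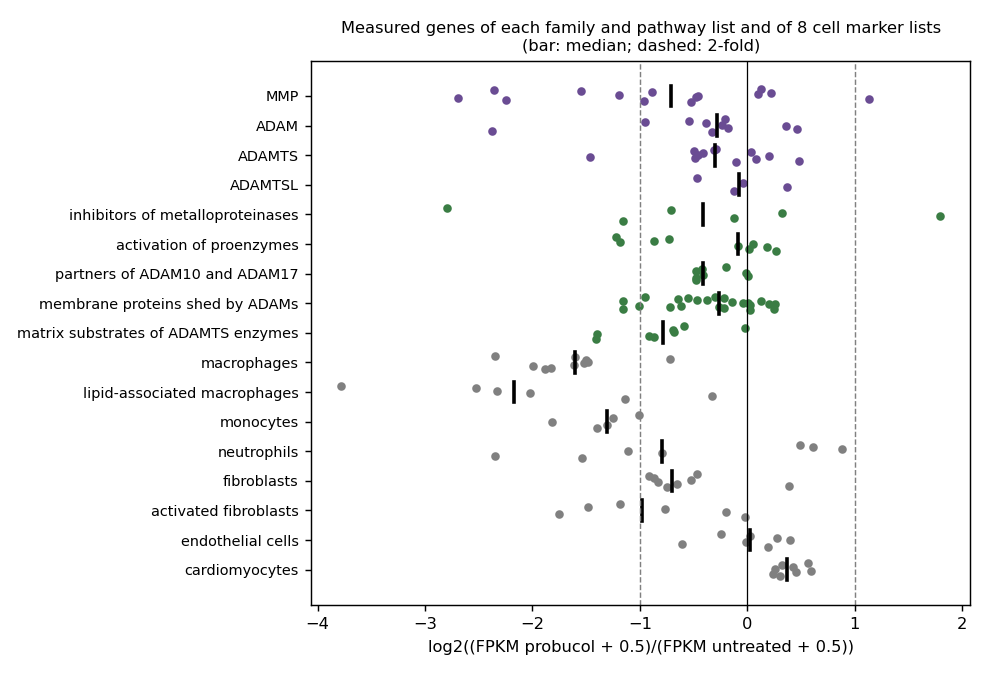
log2((FPKM probucol + 0.5)/(FPKM untreated + 0.5)) of the measured genes of each metalloproteinase family, pathway list and of 8 cell marker lists, 1 point per gene, with the median as a bar and dashed lines at 2-fold. Of the lists plotted, markers of lipid-associated macrophages have the lowest median (-2.18), followed by macrophage markers (-1.61), heart muscle markers lie to the right of 0, and the MMP family spans from -2.69 to 1.13.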

How the data were processed

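The deposited values are gene-level FPKM in both libraries. Per the submitters' processing notes, the tools were TopHat2 2.1.1, Bowtie2 and Cuffdiff 2.2.1, and the build was mm10; order of use, gene annotation, strand and scaling of libraries are not stated there. The labels' protocols name a miRNeasy kit and a TruSeq stranded mRNA kit. Groups came from the treatment label.

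Members were matched by symbol, and ratios were computed in Python 3.11.15 (pandas 2.3.3) over all genes, with a pseudocount of 0.5 and a minimum mean of 0.5 FPKM. Fragment numbers were recovered from low-value steps: of 1637 genes low in both libraries, 358 had the ratio of equal fragment numbers within 0.3%. The calibration subtracted 210 bases from transcript lengths (GENCODE M21 lengths of curated RefSeq transcripts). Of 986 calibration genes with up to 4 fragments, 80.8% came out within 0.15 of a whole number. The 210 bases were chosen for closeness to whole numbers in such genes, so this share is no separate check. Intervals (95%, Clopper-Pearson, SciPy 1.17.1) cover counting error; 0 fragments allow up to 3. Promoter letters came from RefSeq (GRCm38.p6), where 49 of the 81 members had an entry. Ratios were tested on simulated data. Simulated fragment recovery used the same 210 bases and step to make and to read the values, so it could not check the calibration.

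Named in full were all members past 2-fold, the 3 most abundant of each family and 14 members set by name; of pathway and marker lists up to 4 genes with the largest ratio were named by rule, and others (Timp3, Reck, Furin, Rhbdf2, Notch1, Cdh5, Vcan, Ttn and several markers) were picked with their values in view. Some genes that the rule takes from these lists are not reported here. The members, lists and limits were chosen with earlier results of these data known. Alternatives were other pseudocounts, filters and scalings.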

Additional observations from a re-analysis of the deposited data

How the results depend on the processing

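No replicate could be left out and no test was possible with 1 library per group. No paired analysis was possible because each group holds 1 library and no test was run. The count of members at least 2-fold lower was 7, and 5 to 10 under the alternatives; that of higher members was 1, and 0 with a pseudocount of 1. Scaling by equal fragment numbers, chosen after seeing the data, moved the median of all genes from 0.01 to -0.14. It takes back the scaling between the libraries and compares raw fragment numbers, so its shifts are not a better estimate. It moved the medians to -0.51 for all members, -0.83 for MMP, -0.44 for ADAM, -0.45 for ADAMTS and -0.22 for ADAMTSL, and the log2 ratios of summed FPKM to -1.06, -0.55, -0.50 and -0.15 (from -0.90, -0.39, -0.34 and 0.02). Without a filter, members at 0 pulled the medians to 0.0 for all members, 0.0 for ADAM and -0.09 for MMP. The MMP median was -0.83 with a pseudocount of 0.1, -0.57 with 1, and -0.48 over members of at least 0.5 FPKM in both libraries, a filter also chosen after seeing the data. Without the most abundant member of each family, the log2 ratio of summed FPKM was -1.06 for MMP and 0.23 for ADAMTSL. Of 40 measured members, 29 lay below 0 and 7 above 0 under each setting run; Mmp11 and Adamts13 changed sign, and Mmp17 and Adamts6 reached 0, under equal fragment numbers. Members with few fragments (Mmp7, Mmp8, Mmp9, Mmp13, Mmp27) are limited by depth.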

Other observations

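Of 20 other zinc metallopeptidases, a list added after the members' values were known and before its own were seen, 12 were measured, with a median log2 ratio of -0.23. At least 2-fold lower with probucol were the aminopeptidase Anpep, also known as CD13 of myeloid cells and fibroblasts (8.83 against 22.3 FPKM), and Cpxm1 (1.01 against 3.21). Its relative Cpxm2 was 2-fold higher, at 4.94 against 2.07 FPKM, so this pair of carboxypeptidase-like genes lay on opposite sides, at -1.29 and 1.08 on the log2 scale. Bmp1, the procollagen C-proteinase that trims the other end of the precursors cut by Adamts2, had 11.1 against 16.4 FPKM, and the angiotensin-converting enzyme Ace had 14.8 against 20.9. The endothelin-converting enzymes Ece1 (20.8 against 20.1) and Ece2 (7.65 against 7.61) hardly differed, and the astacin genes Mep1a, Mep1b and Astl were listed at or below 0.11 FPKM.

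Within 0.3%, several low members had the ratio that equal fragment numbers give: Adam1a (7 fragments in each library), Adamts17 (5), Adamtsl1 (15) and Mmp17 (40), with Adamts6 and Mmp16 by any of their transcripts, 6 members in all.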
